A study of Mus musculus with 6 samples.

Results

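The genes described here code for the subunits of Polycomb repressive complex 2 (PRC2): Ezh1, Ezh2, Suz12, Eed and Rbbp4 of the core and Mtf2, Phf1, Phf19, Jarid2 and Aebp2 of the accessory set. They were taken by symbol from the platform's annotation, with the brightest probe set for each gene, and all 10 were found among the 19937 genes tested. Their RNA was compared between mouse embryonic stem (ES) cells that make FLAG-tagged CTCFL and cells with a control vector. CTCFL, also known as BORIS, is a germ cell paralog of the insulator protein CTCF, and the series asks what it does to cohesin at active promoters. Both groups were cloned from 46C cells, a male line on the 129P2/OlaHsd background with GFP knocked into the Sox1 gene, and both were stably transfected and kept in 10% serum under puromycin at 1 µg/ml. The control group carried the empty expression vector and the other group the vector for FLAG-CTCFL. Each group had 3 cultures named as biological replicates, and each culture was read on 1 Affymetrix Mouse Gene 1.0 ST array from 200 ng of total RNA. The labels do not say how many independently selected clones the 3 cultures stand for, and the p-values cover the spread among these 6 arrays alone. In RNA from whole cultures, fewer cells with a transcript and less transcript per cell cannot be told apart.

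PRC2 methylates histone H3 at lysine K27 and so keeps developmental genes silent. The catalytic subunit is EZH2 or its less active paralog EZH1, EED binds the finished mark, SUZ12 is the scaffold, and RBBP4 is a histone-binding protein that also serves other chromatin complexes. A complex holds either a Polycomb-like protein (MTF2, PHF1 or PHF19), which binds CpG-rich DNA, or JARID2 with AEBP2. Mouse ES cells can self-renew without PRC2, but they then differentiate poorly.

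Values are log2 signals as the authors deposited them, so a difference of 1 is a doubling. A difference is the FLAG-CTCFL mean less the control mean, with the moderated standard error (SE) of limma's fit over all genes, and a gene was called at a Benjamini-Hochberg adjusted p under 0.05. Signals of different genes come from different probes and are not set against each other. Ctcfl, read to check the labels, had a log2 signal of 7.70 to 7.89 in the control arrays and 11.22 to 11.33 in the FLAG-CTCFL arrays. Array medians lay between 7.92 and 7.99. FLAG-CTCFL replicate 2 had the smallest spread of values, with an SD of 1.41 against 1.44 to 1.47 in the other arrays. Among the 1377 genes with a mean signal above 11, its median deviation from the control mean was -0.10, against 0.05 in FLAG-CTCFL replicate 1 and -0.02 in replicate 3. Ezh2, Suz12, Eed, Mtf2, Jarid2 and Rbbp4 belong to these bright genes, so their values are given with and without that array.

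Promoter sequence is shown for members whose levels differ in pattern below: Ezh1, which was lower, Phf1, which was higher, and Suz12 and Jarid2, which depended on the array. Each line holds the 250 bases before the start site, written 5′ to 3′ along the gene's strand, from the RefSeq promoter table (GRCm38.p6), and none of these windows overlaps an annotated gene. Capitals mark matches on either strand to the motifs searched.
Ezh1, chr11:101226464-101226713, minus strand: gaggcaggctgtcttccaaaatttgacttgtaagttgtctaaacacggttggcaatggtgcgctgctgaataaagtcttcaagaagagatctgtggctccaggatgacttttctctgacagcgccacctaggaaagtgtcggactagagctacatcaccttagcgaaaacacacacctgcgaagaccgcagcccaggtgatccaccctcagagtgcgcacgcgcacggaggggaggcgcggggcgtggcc
Phf1, chr17:26932877-26933126, plus strand: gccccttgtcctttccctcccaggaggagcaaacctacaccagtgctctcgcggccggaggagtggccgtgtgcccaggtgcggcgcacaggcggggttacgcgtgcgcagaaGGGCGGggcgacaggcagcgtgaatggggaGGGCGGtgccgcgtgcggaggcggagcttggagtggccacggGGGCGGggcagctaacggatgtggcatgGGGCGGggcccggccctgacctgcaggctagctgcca
Suz12, chr11:79992856-79993105, plus strand: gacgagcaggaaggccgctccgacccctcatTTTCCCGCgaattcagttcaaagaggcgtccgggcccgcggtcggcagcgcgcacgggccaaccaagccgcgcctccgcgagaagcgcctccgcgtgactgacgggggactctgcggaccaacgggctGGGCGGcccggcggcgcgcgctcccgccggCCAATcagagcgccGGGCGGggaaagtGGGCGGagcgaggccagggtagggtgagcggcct
Jarid2, chr13:44730524-44730773, plus strand: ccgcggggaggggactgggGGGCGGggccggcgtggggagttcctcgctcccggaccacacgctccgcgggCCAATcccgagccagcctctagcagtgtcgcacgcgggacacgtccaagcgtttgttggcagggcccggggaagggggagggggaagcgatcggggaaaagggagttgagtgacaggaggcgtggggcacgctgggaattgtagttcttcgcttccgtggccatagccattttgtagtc

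The table held all 10 members with 14 start sites, and 5 motifs were searched in their windows. The simple motif GGGCGG, known from binding sites of SP factors, was in 9 of the 14 windows. With 1 window per gene, the first listed, 6 of the 10 members held it, and 32.9% of all 27025 genes did. Phf1 and Phf19 had 4 such matches each and Suz12 had 3, while the windows of Ezh1 and Eed held no match to any of the 5. Only exact matches were counted, with any base at N. Other forms of these sites, those of CTCF among them, would be missed, so a window without a match may still hold one. CCAAT, the box bound by NF-Y, was in 6 windows, and with 1 window per gene in 4 members and 34.5% of all genes. The shares of all promoters that follow also count 1 window per gene. TTTNNCGC, close to the E2F site, was in the windows of Suz12 and Phf19 and in 4.39% of all promoters. The window of Ezh2 overlaps annotated transcripts and is not printed. It held 3 CCAAT boxes and no TTTNNCGC. No window held CCGGAAG, the site of ETS factors, which was in 7.05% of all promoters. AGGGGGC, 1 form of a part of the CTCF site, was in 1 of the 14 windows, a window of Aebp2 where it overlaps a GGGCGG match. That window is not the first listed for Aebp2. With 1 window per gene AGGGGGC was in 0 of the 10 members and in 9.29% of all promoters. The windows of Ezh1 and Eed had 55.2% and 54.4% G and C with 14 and 12 CpG, against 73.6% and 37 CpG in Suz12 and medians of 52.0% and 6 CpG over all genes.

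Of the 10 genes, Ezh1 and Mtf2 fell, Phf1 rose and 7 did not pass the test. Over all genes tested 18.4% fell and 12.5% rose, 30.9% in all, so 3 called members of 10 are close to the background. In 5 equal classes of genes by mean signal, the share called was 38.2% in the middle class, where Phf1 and Phf19 lie, 53.6% in the next brighter one, with Ezh1 and Aebp2, and 46.7% in the brightest, with the other 6. The median difference over the 10 members was 0.05 on the log2 scale, against 0.0037 over all genes. Changes of members were small: none reached 1.5-fold, as 3.56% of all genes did with a call, and 6.38% of all genes differed by at least as much as Ezh1. The signals of all 10 lay above 7.63, a background bound under which 95% of 1194 odorant and pheromone receptor genes lay.

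**Figure D1:**
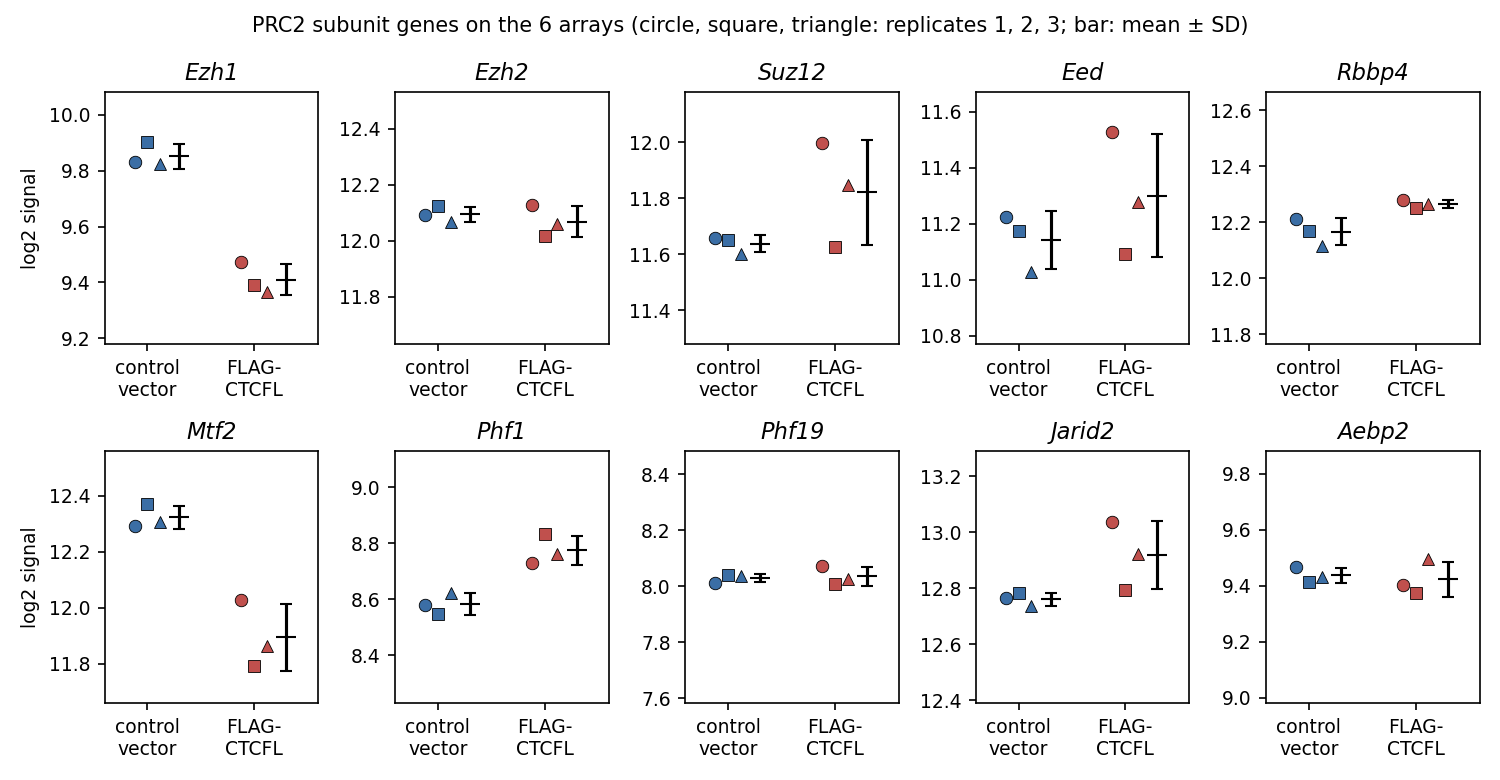
Log2 signal of each PRC2 subunit gene on the 6 arrays, with circles, squares and triangles for replicates 1, 2 and 3 and bars for the mean ± SD (n = 3 per group); every panel spans the same range of log2 units. Ezh1 and Mtf2 lie lower and Phf1 higher in all 3 FLAG-CTCFL arrays, and Suz12, Eed and Jarid2 are high in FLAG-CTCFL replicates 1 and 3 and near the controls in replicate 2.

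Within the catalytic pair, Ezh1 fell while no difference was seen in Ezh2. Ezh1 (Entrez 14055, chromosome 11) had a log2 signal of 9.83, 9.90 and 9.82 in control replicates 1 to 3 and of 9.47, 9.39 and 9.37 in the FLAG-CTCFL arrays. The groups did not overlap, as in 41.3% of all genes. The fall was -0.44 ± 0.05 on the log2 scale (SE, n = 3 per group; limma adjusted p = 7.58e-06), a control level 1.36-fold that of FLAG-CTCFL cells. Under 15 other settings it ranged from -0.48 to -0.36 and passed each time. Ezh2 (Entrez 14056, chromosome 6), the main methyltransferase of dividing cells, read 12.09, 12.12 and 12.07 in the controls and 12.13, 12.02 and 12.06 with FLAG-CTCFL. These values overlap, and the difference of -0.03 has a 95% interval of -0.12 to 0.07 (limma adjusted p = 0.751). Its sign changed after quantile normalization of the arrays (0.02) and without FLAG-CTCFL replicate 2 (0.00041). Taken per array relative to the control means, the change of Ezh1 minus that of Ezh2 was -0.41, -0.38 and -0.45 in FLAG-CTCFL replicates 1 to 3, and between -0.02 and 0.02 in the controls. The log ratio of the paralogs was thus lower in each FLAG-CTCFL array than in any control.

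Suz12 and Eed, the subunits that EZH1 and EZH2 need for activity, did not pass, and their FLAG-CTCFL arrays disagreed. Suz12 (Entrez 52615, chromosome 11) read 11.66, 11.65 and 11.60 in the controls and 11.998, 11.62 and 11.85 with FLAG-CTCFL. Replicates 1 and 3 lay above all controls and replicate 2 among them. The difference was 0.19 ± 0.07 (SE, n = 3 per group; limma adjusted p = 0.0770). Without FLAG-CTCFL replicate 2 it was 0.28 (adjusted p = 0.000638), and it also passed after quantile normalization (0.26, adjusted p = 0.00140) and with array weights (0.21, adjusted p = 0.000561). The weights were 0.41, 0.32 and 5.77 for FLAG-CTCFL replicates 1 to 3. The weighted fit, here and below, thus rests largely on replicate 3 in that group, and it called 46.2% of all genes. Eed (Entrez 13626, chromosome 7) read 11.22, 11.18 and 11.03 in the controls and 11.53, 11.09 and 11.28 with FLAG-CTCFL, again with replicate 2 inside the control range. Its difference was 0.16 ± 0.09 (limma adjusted p = 0.220), with a 95% interval of -0.03 to 0.35. It passed without FLAG-CTCFL replicate 2 (0.26, adjusted p = 0.0115), after quantile normalization (0.24, adjusted p = 0.0130) and with array weights (0.14, adjusted p = 0.0300). A dimmer probe set of Eed, with control and FLAG-CTCFL means of 7.29 and 7.38, lay below the background bound and gives no measure of the gene.

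Rbbp4 (Entrez 19646, chromosome 4) read 12.21, 12.17 and 12.11 in the controls and 12.28, 12.25 and 12.27 with FLAG-CTCFL. The groups did not overlap, yet the difference of 0.10 ± 0.04 did not pass (limma adjusted p = 0.106). It passed after quantile normalization (0.13, adjusted p = 0.0254) and with array weights (0.10, adjusted p = 0.0174). Without FLAG-CTCFL replicate 2 it was 0.11 and did not pass (adjusted p = 0.0932). Its paralog Rbbp7, which can take its place in PRC2, differed by 0.0054 (adjusted p = 0.95). RBBP4 and RBBP7 are close in sequence, and probes that bind the transcripts of both could blur a difference between them.

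**Figure D2:**
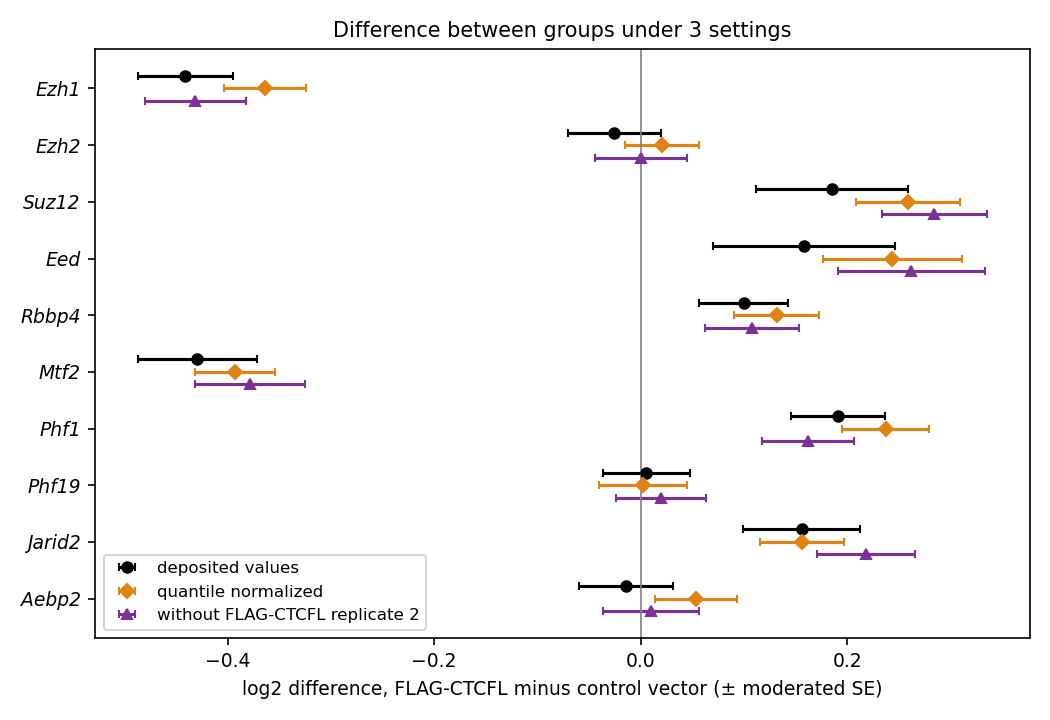
Log2 difference between groups for each gene (points, with the moderated SE) with the deposited values, after quantile normalization and without FLAG-CTCFL replicate 2. Ezh1, Mtf2 and Phf1 keep their direction and size under the 3 settings, Suz12 and Eed move to the right under both alternatives, and Ezh2, Phf19 and Aebp2 stay near 0.

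The 3 Polycomb-like genes went different ways. Mtf2 (Entrez 17765, chromosome 5), the Polycomb-like protein best known from ES cells, read 12.29, 12.37 and 12.31 in the controls and 12.03, 11.79 and 11.86 with FLAG-CTCFL. Every FLAG-CTCFL array was below every control. The fall was -0.43 ± 0.06 (SE, n = 3 per group; limma adjusted p = 6.57e-05), with the control level 1.35-fold that of FLAG-CTCFL cells. It passed under each of 15 other settings, from -0.50 to -0.38, with -0.38 without FLAG-CTCFL replicate 2, the array in which Mtf2 was lowest. Phf1 (Entrez 21652, chromosome 17) read 8.58, 8.55 and 8.62 in the controls and 8.73, 8.83 and 8.76 with FLAG-CTCFL, with no overlap. It rose by 0.19 ± 0.05 (1.14-fold; limma adjusted p = 0.00539) and passed under the same 15 settings, between 0.16 and 0.24, with adjusted p up to 0.0409. Phf19 (Entrez 74016, chromosome 2) read 8.01, 8.04 and 8.04 in the controls and 8.07, 8.01 and 8.03 with FLAG-CTCFL. These values overlap, the difference was 0.01 with a 95% interval of -0.08 to 0.10 (limma adjusted p = 0.948), and its sign turned after subtraction of array medians (-0.02) and with array weights (-0.0021), and when control or FLAG-CTCFL replicate 1 was left out (lowest -0.01). Per array, the change of Mtf2 minus that of Phf1 was -0.44, -0.78 and -0.64 in FLAG-CTCFL replicates 1 to 3 and between -0.06 and 0.08 in the controls. It was lower in every FLAG-CTCFL array than in any control, and its size differed between these arrays. For genes with a mean signal above 11, such as Mtf2, the medians of FLAG-CTCFL replicates 1 and 2 differed by 0.15, and in the middle signal class of Phf1 by -0.06; the part of array scaling in this spread was not tested.

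Of the partner proteins of the other form of the complex, neither passed. Jarid2 (Entrez 16468, chromosome 13), a DNA-binding cofactor that helps bring PRC2 to its targets, read 12.77, 12.78 and 12.74 in the controls and 13.04, 12.79 and 12.92 with FLAG-CTCFL. Replicate 2 lay just above the highest control, and the difference was 0.16 ± 0.06 (SE, n = 3 per group; limma adjusted p = 0.0541). Without that array it was 0.22 (adjusted p = 0.00258). Jarid2 also passed after quantile normalization (0.16, adjusted p = 0.00907), with array weights (0.16, adjusted p = 0.00125) and without genes under the 25th (adjusted p = 0.0448) or the 50th percentile of mean signal (adjusted p = 0.0405). Aebp2 (Entrez 11569, chromosome 6), a zinc finger protein that stabilises the complex, read 9.47, 9.41 and 9.43 in the controls and 9.40, 9.37 and 9.49 with FLAG-CTCFL. The values overlap, and the difference of -0.01 has a 95% interval of -0.11 to 0.08 (limma adjusted p = 0.873). Its sign turned after quantile normalization (0.05), with array weights (0.05) and when control replicate 1 or FLAG-CTCFL replicate 2 was left out (highest 0.01). The change of Mtf2 minus that of Jarid2, accessory subunits of the alternative complexes, was -0.57, -0.56 and -0.62 in FLAG-CTCFL replicates 1 to 3 and between -0.03 and 0.03 in the controls. This shift was about equal in the 3 FLAG-CTCFL arrays although each gene on its own varied between them. Another pair of bright members was uneven: the change of Suz12 minus that of Ezh2 was 0.33, 0.07 and 0.24 in the same arrays.

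The bright members shared 1 order among the FLAG-CTCFL arrays. Relative to the control mean Suz12 stood at 0.36, -0.01 and 0.21 in replicates 1 to 3, Eed at 0.39, -0.05 and 0.14, and Jarid2 at 0.27, 0.03 and 0.16. Mtf2 stood at -0.30, -0.53 and -0.46, Ezh2 at 0.03, -0.08 and -0.03, and Rbbp4 at 0.11, 0.08 and 0.10. These 6 genes, like bright genes in general, were highest in replicate 1 and lowest in replicate 2, and replicate 1 lay above replicate 2 by 0.37 in Suz12, 0.44 in Eed, 0.24 in Jarid2, 0.24 in Mtf2, 0.11 in Ezh2 and 0.03 in Rbbp4. The less bright Ezh1 stood at -0.38, -0.46 and -0.48 and Phf1 at 0.15, 0.25 and 0.18 in the same arrays. For genes with a mean signal above 11 the medians of these arrays differed by 0.15. The part of array scaling in these 6 genes was not tested beyond the settings given. With quantile normalization 5 members were called higher (Suz12, Eed, Rbbp4, Phf1 and Jarid2) and 2 lower (Ezh1 and Mtf2), beside 19.8% higher and 16.6% lower of all genes, and without FLAG-CTCFL replicate 2, 4 were higher (Suz12, Eed, Phf1 and Jarid2) and 2 lower, beside 14.1% and 18.1%.

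**Figure D3:**
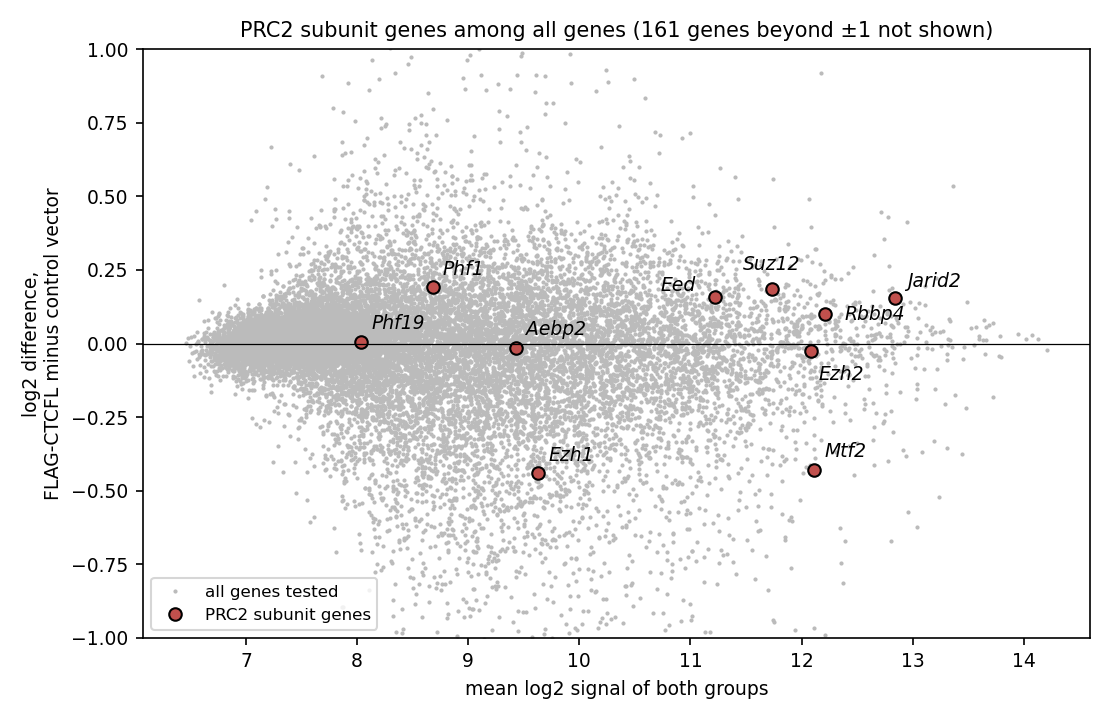
Log2 difference between groups against the mean log2 signal for all genes tested (grey) and the PRC2 subunit genes (red); the 161 genes that differed by more than 1 are outside the axis. Ezh1 and Mtf2, at -0.44 and -0.43, lie in the lower part of the cloud at their signal, and the other 8 lie between -0.03 and 0.19.

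Other known partners of PRC2 moved both ways. Of 6 measured, Epop, which joins MTF2-containing PRC2 with elongin in ES cells, fell by 0.36 on the log2 scale (10.77 to 10.41; limma adjusted p = 8.26e-05), and 3 rose. These were Ezhip, an inhibitor of EZH2 known from the gonads (0.20, adjusted p = 0.0104), Lcorl (0.17) and Skida1 (0.16). The rises depended on single arrays: none of the 3 passed without control replicate 1, and 1, that of Ezhip, without FLAG-CTCFL replicate 3. Lcorl also did not pass without control replicate 3. The list's median difference was 0.09. Of these few genes 66.7% were called, against 30.9% of all genes tested and 38.2% to 53.6% in the middle and brighter signal classes.

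PRC1, the complex that binds the PRC2 mark through its CBX subunits and ubiquitinates histone H2A, moved both ways. Of 21 measured genes 3 rose, 4 fell and 14 did not pass, with a median of -0.03. The share called was 33.3%, against 30.9% of all genes and 38.2% to 53.6% in the middle and brighter signal classes, where these genes lie. Bcor (-0.50, limma adjusted p = 4.24e-06) and its paralog Bcorl1 (0.39, adjusted p = 4.94e-05), which belong to the same PRC1 variant, changed in opposite directions. Phc1, the main polyhomeotic subunit of ES cells, fell by 0.37 (12.50 to 12.13; adjusted p = 2.99e-05), and Auts2 by 0.29. Pcgf5 (-0.16), Pcgf2 (0.18) and Pcgf1 (0.17) passed, but Pcgf2 and Pcgf1 not without control replicate 2 or 3, and Pcgf1 also not without FLAG-CTCFL replicate 1 or 3. Pcgf5 passed only with all arrays, or without FLAG-CTCFL replicate 1, among the fits that leave out 1 array. The count of higher genes was 1 without control replicate 2 or 3 and 5 without FLAG-CTCFL replicate 2, and that of lower genes was 7 without FLAG-CTCFL replicate 1. The catalytic subunits Ring1 (-0.01) and Rnf2 (0.09) and the ES cell subunit Cbx7 (-0.13, adjusted p = 0.0638) did not pass.

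Among enzymes that oppose Polycomb marks, the Y-linked Uty, a paralog of the K27 demethylase Kdm6a, fell by 0.41 (10.18 to 9.77; limma adjusted p = 9.93e-05), and Kdm6a (0.06) and Kdm6b (0.05) did not pass. In the PR-DUB deubiquitinase group Ogt, an O-GlcNAc transferase bound to it, fell by 0.60 (adjusted p = 4.53e-07), more than any other gene of this list. Foxk1 (0.30, adjusted p = 0.000171), Mbd6 (0.17) and Bap1, the catalytic subunit (0.13), rose. The call of Bap1 was lost without any 1 array other than FLAG-CTCFL replicate 2. In this list of demethylases and PR-DUB, 3 of 12 measured genes rose and 2 fell (5 and 2 without FLAG-CTCFL replicate 2), with a median of 0.04. With all arrays 41.7% were called, against 30.9% of all genes and 38.2% to 53.6% in the middle and brighter signal classes, where these genes lie. Of 18 genes for trithorax-type and K36 methyltransferases, 6 rose and 2 fell, with a median of -0.01. Called were 44.4%, against 30.9% of all genes and 46.7% to 53.6% in the 2 brightest signal classes, where these genes lie. Kmt2a, the founding member of the mammalian trithorax family, rose by 0.49 (9.42 to 9.90; adjusted p = 3.15e-05), Pagr1a by 0.30, and Men1 and Ash2l by 0.25 each. Nsd2, a K36 methyltransferase, fell by 0.33 (adjusted p = 0.000471) and Ncoa6 by 0.12, a call lost without any 1 array. The count of lower genes was 1 without any control array or FLAG-CTCFL replicate 2, and 5 without FLAG-CTCFL replicate 1.

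**Figure D4:**
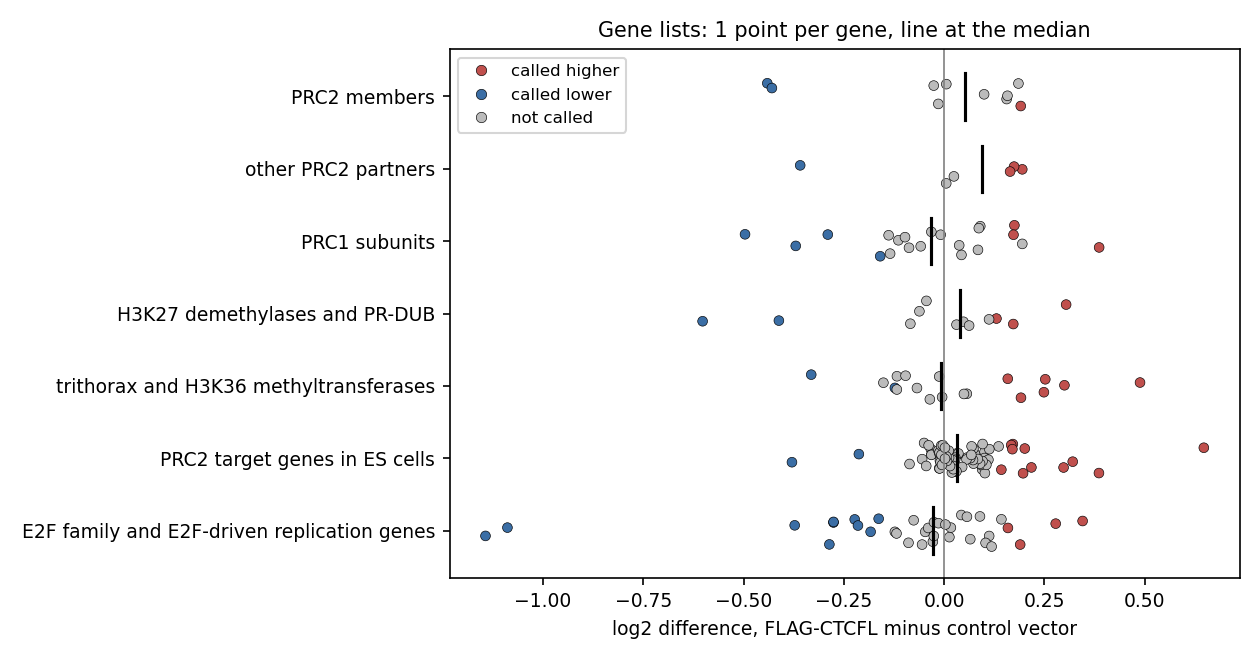
Log2 difference between groups for the genes of each list, with 1 point per gene, called genes in red (higher) or blue (lower) and a line at the median. Medians lie between -0.03 and 0.09, the genes Rb1 and Pola1 are the farthest to the left, and most PRC2 target genes lie close to 0.

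Classical targets of PRC2 in ES cells, the regulators of development that carry its mark there, mostly stayed near 0. Of 73 measured, 11 rose, 2 fell and 60 did not pass, with a median of 0.03. Over all genes 12.5% rose and 18.4% fell. The share called was 17.8%, against 30.9% of all genes. Above the 50th percentile of mean signal lay 11 of the 73. In the signal classes from the dimmest to the middle one, 2.91%, 13.1% and 38.2% of genes were called. This list is dim: control means of 52 genes lay above the background bound, and in 17 genes the means of both groups lay below it, so small changes would not be seen. Igf2, an imprinted growth factor, rose by 0.65 (8.22 to 8.86; limma adjusted p = 1.56e-07), Meis2 by 0.39 (7.66 to 8.05), and Pax6, a regulator of eye and neural fate, by 0.32 (7.74 to 8.06). Tbx20, a heart factor, was called higher, but its control mean of 7.45 lay below the bound and its FLAG-CTCFL values of 7.69, 7.65 and 7.61 close to it, so the size of its change is not known. Neurod1 fell by 0.38 (7.90 to 7.52) and Neurog3 by 0.21 (7.68 to 7.47), both to means below the bound. The fall of Neurog3 was lost without control replicate 3 or FLAG-CTCFL replicate 3, and the count of lower genes was then 1. The count of higher genes was 6 without control replicate 1 and 7 without control replicate 2.

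Ezh2, Eed and Suz12 are known targets of E2F factors in dividing cells, and genes of that circuit were set beside them. Of 36 measured genes 4 rose and 10 fell, with a median of -0.03. This is 38.9% called, against 30.9% of all genes and 38.2% to 53.6% in the middle and brighter signal classes. All 36 lay above the 50th percentile of mean signal. Rb1, the retinoblastoma protein that restrains E2F, fell by 1.09 (10.11 to 9.02; limma adjusted p = 3.83e-09), and its relative Rbl1 by 0.37. Pola1, the catalytic subunit of DNA polymerase alpha, fell by 1.14 (adjusted p = 1.53e-08) and the helicase subunit Mcm6 by 0.29. The phosphatase gene Cdc25a (0.35, adjusted p = 0.000177), E2f6, a repressor found with a PRC1 variant (0.28), E2f2 (0.19) and Ccne2 (0.16) rose. The call of Ccne2 was lost without any 1 array other than FLAG-CTCFL replicate 2, and without that array 7 genes of the list were higher.

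The labelled cell type was checked on its markers. All 12 ES cell markers had control means above the background bound. Pou5f1 (12.65 and 12.54, control and FLAG-CTCFL), Zfp42 (11.57 and 11.46) and Utf1 (12.19 and 12.28) did not pass, while Fgf4 (-0.94), Nanog (-0.62), Esrrb (-0.50) and Dppa5a (-0.38) fell and Sall4 rose (0.21). In all 6 markers fell and 1 rose, and the mean over the 12 markers was 12.19 to 12.21 in control arrays and 11.88 to 12.03 in FLAG-CTCFL arrays. Over the 10 trophoblast markers measured it was 8.12 to 8.16 and 8.30 to 8.36, with 4 higher (Krt8 by 1.15, Eomes by 0.61, Gata3 by 0.33, and Cdx2 from a mean of 7.56, below the background bound, to 7.86), 1 lower (Tfap2c, -0.73), and Tpbpa and Elf5 below the background bound in both groups. Over 11 neural markers it was 8.19 to 8.24 and 8.26 to 8.27, with Nes (0.68) and Pax6 higher, Map2 (-0.44) lower, and Zic1, Fabp7 and Dcx below the bound in both groups. Over 12 endoderm markers it was 7.99 to 8.01 and 8.02 to 8.07, with 4 higher (Pdgfra by 0.54, Apoa1 by 0.20, Dab2 by 0.19, a call lost when probe sets were averaged per gene, and Gata6 by 0.14) and 1 lower (Lamb1, -0.50), and Sox17, Ttr and Afp below the bound in both groups. The call of Gata6 was lost without any 1 array other than FLAG-CTCFL replicate 2. Over 13 fibroblast markers it was 7.84 to 7.88 and 7.87 to 7.96, with Col6a2 (0.22, lost without control replicate 3) and Col1a1 (0.16, lost when control array 1 or 2 or FLAG-CTCFL array 2 or 3 was left out) higher, Thy1 (-0.48) lower, and Dcn, Postn, Lum and Fap below the bound in both groups. The shares called were 58.3% for ES cell, 50% for trophoblast, 27.3% for neural, 41.7% for endoderm and 23.1% for fibroblast markers, against 30.9% of all genes. That share of all genes ran from 2.91% in the dimmest signal class to 53.6% in the class with Ezh1. The part of these cell types in the PRC2 values was not tested.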

How the data were processed

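RNA of 3 control vector and 3 FLAG-CTCFL cultures was labelled with the GeneChip WT Terminal Labeling Kit and hybridised to Affymetrix Mouse Gene 1.0 ST arrays, per the labels' protocols. The deposited values are 1 log2 signal per probe set and array. Their range, 5.73 to 14.56, is that of a log2 scale. How the authors corrected background, summarised probes and scaled arrays is not given in the sources used here, and a shift common to all genes may have been removed.

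Of 34760 probe sets 21640 had 1 gene symbol in the platform's annotation, 1321 several and 11799 none. For 21553 the symbol was brought up to date from the GRCm38.p6 gene table. Each of 19937 genes was represented by its brightest probe set, and no dim gene was dropped. A limma model (version 3.58.1, R 4.3.3) with group as its single term was fitted with lmFit and eBayes, and two-sided p-values were adjusted over all genes. No set test was run on the lists. The arrays' number limits the precision. The fit was tested on simulated data. Python 3.11.15 with matplotlib 3.10.9 drew the figures. Promoter matches were searched on both strands. Longer motifs written after the sites of CTCF, NRF1 and YY1 were searched at first too, matched no window of a member and were then left out, so they are not reported.

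The members and the gene lists were chosen with earlier results of these data known. Named are Ctcfl, the 10 members, up to 4 called genes in each direction of every list and up to 3 called genes among the 10 on either side of a member. Ring1, Rnf2, Cbx7, Kdm6a, Kdm6b, Rbbp7, Pou5f1, Zfp42, Utf1, the markers below background, Ramp2, Cntnap1 and Rny1 were named after their values were seen. The alternatives were a block for replicate number, arrays centred on their medians or quantile normalized, genes under the 25th or 50th percentile of signal dropped, probe sets averaged per gene, robust estimation with a variance trend, array weights, no variance shared between genes, 1 array left out at a time, and a minimum change of 1.5-fold; for genes beside a member, 25 in place of 10 on either side. No batch was tested.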

Additional observations from a re-analysis of the deposited data

How the results depend on the processing

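Ezh1 and Mtf2 remained lower and Phf1 higher, past the threshold, under the 15 alternatives other than the minimum change of 1.5-fold, under which 0 members were higher and 0 lower. Members called higher, 1 as reported, numbered 5 after quantile normalization (19.8% of all genes higher, against 12.5% as reported), 5 with array weights (21%), 2 with genes below the 25th percentile of signal dropped (16.4%), 2 with those below the 50th dropped (19.7%), 2 with the replicate block (12%) and 1 to 4 with 1 array left out (9.56% to 14.1%). Members called lower stayed at 2 in these settings. Differences that turned sign were those of Ezh2 (0.0208 after quantile normalization, -0.0560 to 0.00041 with 1 array left out), Phf19 (-0.0194 with array medians subtracted, -0.0021 with array weights, -0.0127 to 0.0197 with 1 array left out) and Aebp2 (0.0538 after quantile normalization, 0.0468 with array weights, -0.0498 to 0.0101 with 1 array left out), none of which passed in any setting; the cause was not tested.

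Of all genes 6161 were called as reported, 2496 higher and 3665 lower, and 7249 after quantile normalization, 3943 higher and 3306 lower; 9204 were called with array weights, 3924 with no variance shared between genes, 709 at 1.5-fold and 4950 to 6429 with 1 array left out. At 1.5-fold, 0 other PRC2 partners were higher and 0 lower, 0 PRC1 genes higher and 0 lower, 0 of the demethylase and PR-DUB list higher and 1 lower, 0 trithorax and K36 genes higher and 0 lower, 1 PRC2 target higher and 0 lower, and 0 E2F genes higher and 2 lower. With no shared variance, 0 partners were higher, 1 PRC1 gene higher and 2 lower, 4 targets higher and 1 lower, and 2 E2F genes higher. Quantile normalization gave 6 PRC1 genes, 6 of the demethylase and PR-DUB list and 10 E2F genes higher and 1 trithorax and K36 gene lower. Array weights gave 7 PRC1 genes higher and 8 lower, and 5 of the demethylase and PR-DUB list, 20 targets and 8 E2F genes higher. Subtraction of array medians gave 1 higher gene each for partners, PRC1 and the demethylase and PR-DUB list. Of the other genes named, this setting ended the calls of Lcorl, Skida1, Mbd6, Pcgf2, Pcgf1, Bap1, Ccne2, Col1a1 and Gata6. With genes below the 50th percentile dropped, 4 trithorax and K36 genes were lower, 3 targets higher and 0 lower, with 11 targets left.

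With 1 array left out, higher and lower genes numbered 0 to 3 and 1 for partners, 1 to 5 and 3 to 7 for PRC1, 2 to 5 and 2 for demethylases and PR-DUB, 5 to 6 and 1 to 5 for trithorax and K36 genes, 6 to 13 and 1 to 2 for targets, and 3 to 7 and 10 to 12 for E2F genes. Same-numbered arrays share only a number: the correlations of their deviations over genes were 0.13, -0.20 and -0.02. With the replicate block 5979 genes were called, 2 members (Suz12, adjusted p = 0.0424, beside Phf1) were higher and 1 trithorax and K36 gene was lower. Array weights gave FLAG-CTCFL replicate 3 a weight of 5.77 and the others 0.32 to 1.24, so that setting rests largely on 1 FLAG-CTCFL array. Dim signal limits what can be seen: 2.91% of the genes in the dimmest of 5 equal classes were called, against 53.6% in the class with Ezh1.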

Other observations

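The genes on either side of each member were read in gene order along the chromosome, 10 measured genes per side. Their counts stand beside 12.5% higher and 18.4% lower over all genes tested. Beside Ezh1, 4 of 20 rose and 2 fell, with a median of 0.03. Its direct neighbours Cntnap1 (0.09) and Ramp2 (0.09) did not pass, and the smallest p-values were those of Psmc3ip (0.29), Becn1 (0.19) and Retreg3 (0.18), all higher while Ezh1 was lower. Beside Mtf2, 1 of 20 rose and 5 fell, with a median of -0.05, among them the direct neighbour Dipk1a (-0.20), Rpap2 (-0.31) and Glmn (-0.22). Beside Phf1, 5 rose and 5 fell, with Ergic1 (-0.70), Fam234a (0.52) and Crebrf (-0.29) first by p.

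Rbbp4 did not pass, while 9 of its 20 neighbours fell, beside 18.4% of all genes. The other neighbours did not pass, and the median was -0.08. Zbtb8a fell by 0.62, the direct neighbour Sync by 0.42 and Tmem54 by 0.28. With 25 genes per side the median was 0.0063, with 6 higher and 12 lower. Next to Ezh2 lie Rny3 and Rny1, genes of small cytoplasmic Y RNAs. Rny3 fell by 0.52 ± 0.07 and Rny1 rose by 0.86 ± 0.16 (SE, n = 3 per group). The call of Rny1 was not followed under the other settings. Cntnap2 (0.32) and Zfp746 (-0.28) were the others with the smallest p-values there, and 4 of 20 rose and 4 fell.

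Beside Suz12, 1 of 20 rose (Ksr1, 0.26) and 6 fell, led by Tefm (-0.38) and Lgals9 (-0.39). Beside Eed 2 fell, Tmem135 (-0.44) and Ctsc (-0.14, lost when any control array or FLAG-CTCFL array 2 was left out), beside Jarid2 2 rose and 2 fell, led by Atxn1 (0.31), Mylip (-0.23) and Gfod1 (-0.16, lost without control replicate 3), and beside Phf19 1 rose and 4 fell, led by Mvb12b (-0.54), Pbx3 (-0.49) and Cntrl (-0.19). Beside Aebp2 Dera fell (-0.46). Mgst1 was also called lower there, but its means of 7.60 and 7.45 lay below the background bound of 7.63 in both groups and give no measure of the gene. With 25 genes per side, 10 of 50 were called lower, close to the 18.4% of all genes.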
